A study of Mus musculus with 11 samples.

Results

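Interferon-stimulated effector genes encode the proteins that carry out the antiviral state inside a cell. The 44 genes described here were chosen by symbol from the Oas, Ifit, Gbp, Irg, Mx, Parp and other effector families, without sensors or IRF and STAT factors. All 44 symbols were among the 23284 genes counted in each of 11 mouse tumors. The tumors were of a small cell lung cancer model, a neuroendocrine carcinoma, and every tumor carried the labelled genotype "Rb;p53,TRE-MYCN, LSL-RTTA". TRE-MYCN is a MYCN transgene that responds to doxycycline, and LSL-RTTA is a doxycycline transactivator that is silent until Cre removes a stop cassette. In the MYCN ON group 7 tumors were on doxycycline, and in the MYCN OFF group doxycycline had been withdrawn from 4 tumors for 7 days. The Cre driver, the strain, the age and the species of the MYCN transgene are not given in the sources used here. Neither is whether each tumor came from its own mouse. The p-values therefore reflect tumor-to-tumor spread only. Doxycycline and MYCN changed together in this design, and their effects cannot be told apart.

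Type I and type III interferons signal through JAK kinases to transcription factors that bind the interferon-stimulated response element (ISRE) in promoters. Interferon gamma acts mainly through another element, the gamma-activated site (GAS). The OAS, IFIT, MX and ISG15 genes are classic targets of the former pathway, and the GBP and IRG GTPases are strong targets of interferon gamma.

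Each tumor had between 8951733 and 13123838 reads assigned to genes. Levels are given as CPM, a gene's share of those reads after TMM scaling. The mouse symbol Mycn was at 36.5 to 171 CPM with a median of 109 in MYCN ON and at 14.5, 15.6, 13 and 5.62 CPM in MYCN OFF tumors 1 to 4, so every MYCN ON tumor was higher (log2 fold change 3.06, edgeR adjusted p = 0.00139). How much of this level came from the transgene was not tested. The labelled cell type was checked with 10 neuroendocrine markers, of which 0 were at 0. Their summed level was 2220 to 4120 CPM in MYCN ON and 1670 to 8040 CPM in MYCN OFF. In MYCN ON 1 marker was called higher and 1 lower, against 16% and 13.4% of all genes tested. Lung epithelium markers (12 genes) stood apart in MYCN OFF tumors 1, 3 and 4 and MYCN ON tumors 3 and 5, with sums of 979 to 33200 CPM there and 8.05 to 89 CPM in the other 6 tumors.

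Most effector genes were lower in tumors with MYCN on. Of 44 members, 37 were lower in MYCN ON, 0 were higher and 7 were not called at an edgeR adjusted p below 0.05, while 13.4% of the 15237 genes tested were lower in MYCN ON and 16% higher. The members were chosen with earlier results of these data known, so the contrast with all genes is no independent support. The median log2 fold change, MYCN ON over MYCN OFF, was -2.68 over the members and 0.00 over all genes tested, of which 29.4% were called in either direction. At least 4-fold higher levels in MYCN OFF were fitted for 35 members (79.5%), against 7.65% of all genes tested. For 22 members every MYCN OFF tumor lay above every MYCN ON tumor, a separation in that direction found for 5.41% of genes. At an adjusted p below 0.01, 26 members were lower against 3.39% of genes, and 32 against 4.33% when changes above 1.5-fold were required. Without MYCN OFF tumor 1, which was the highest of its group for 37 members, 27 were lower against 6.59% of genes, and the fitted fold of 18 of the 37 moved by more than 1.5 times. The median over the members was then -2.10. All 44 members passed the filter on low counts. Oas1g, 1 of the 37, passed it only through the MYCN OFF tumors, where it is high, so its call is no independent support. The same holds for its place among the 35, 22, 26 and 27 members counted above, and in every later count that includes Oas1g. In bulk tumors, fewer cells that express a gene and less RNA per cell cannot be told apart.

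**Figure D1:**
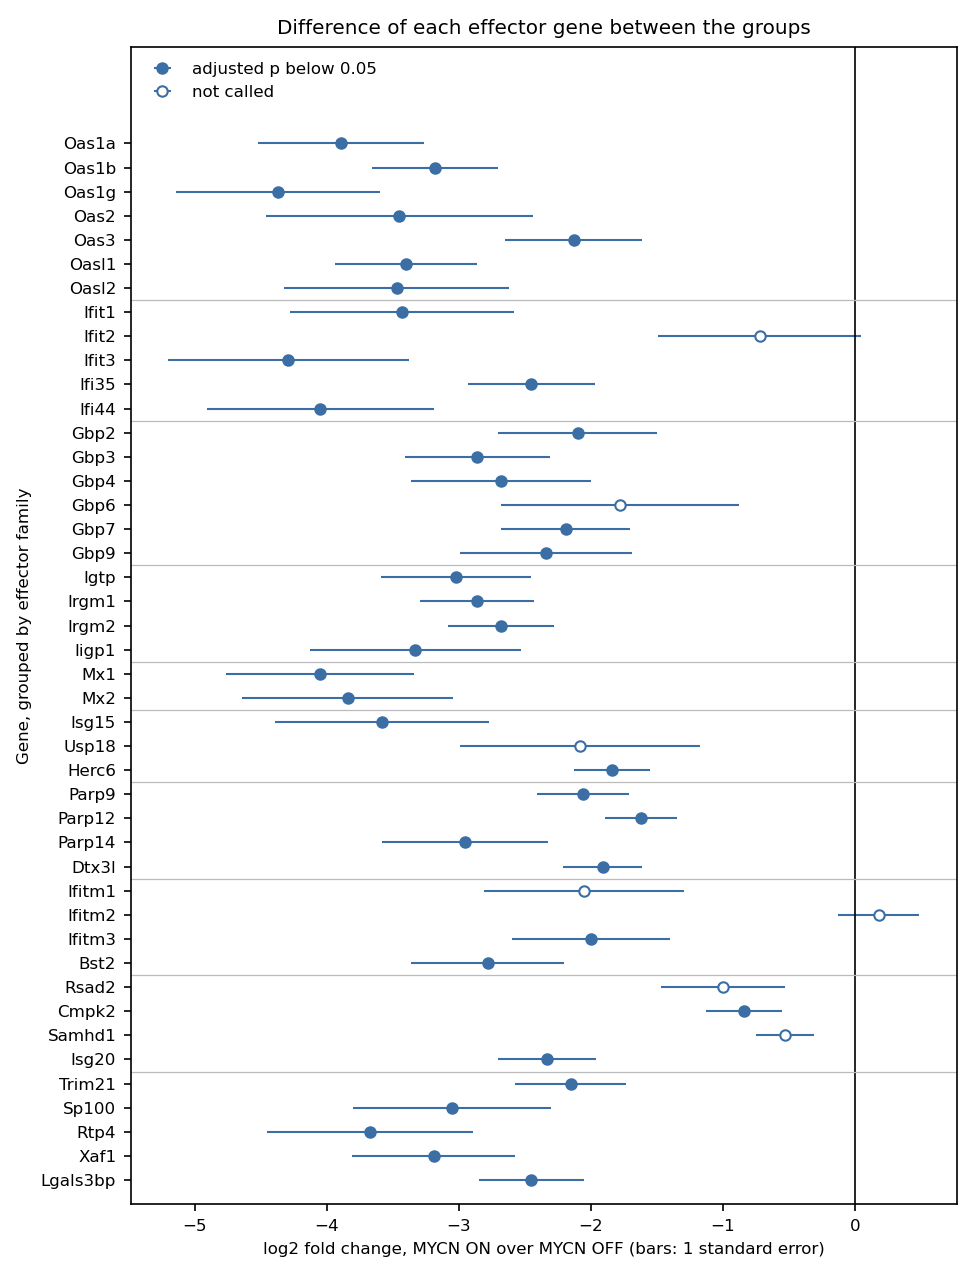
Log2 fold change (MYCN ON over MYCN OFF) of each of the 44 effector genes, grouped by family, with bars of 1 standard error from 7 and 4 tumors. Filled points are the 37 genes with an edgeR adjusted p below 0.05, all left of 0, and open points the 7 genes not called, of which Ifitm2 is the one right of 0.

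The promoters of several members share a short response element, and the stretches around it are shown for 11 members called lower and for Ifitm2, which was not called. Promoter windows of 300 bases (250 before to 50 after the start) from RefSeq, build GRCm38.p6, were matched by symbol for 32 of 44 members. Each stretch below runs 5′ to 3′ on the strand of its gene, and the capitals mark the ISRE match nearest the start site, written GAAANNGAAA on either strand.
Oas1a: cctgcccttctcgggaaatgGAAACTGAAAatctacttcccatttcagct
Oas1g: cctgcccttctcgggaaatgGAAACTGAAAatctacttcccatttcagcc
Ifit1: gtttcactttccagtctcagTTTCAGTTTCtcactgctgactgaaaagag
Ifit3: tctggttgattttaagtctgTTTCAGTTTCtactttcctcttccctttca
Gbp2: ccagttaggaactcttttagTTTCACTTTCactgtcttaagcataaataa
Gbp3: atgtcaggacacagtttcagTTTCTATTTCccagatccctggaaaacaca
Igtp: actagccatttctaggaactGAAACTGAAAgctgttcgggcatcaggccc
Irgm2: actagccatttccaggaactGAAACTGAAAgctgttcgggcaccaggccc
Irgm1: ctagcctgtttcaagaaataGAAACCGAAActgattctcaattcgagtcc
Isg15: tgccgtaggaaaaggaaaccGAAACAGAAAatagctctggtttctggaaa
Bst2: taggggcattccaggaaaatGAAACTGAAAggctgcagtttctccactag
Ifitm2: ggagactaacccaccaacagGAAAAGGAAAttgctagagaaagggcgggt

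Minus-strand stretches lie at chr5:120907510-120907559 (Oas1a), chr5:120887596-120887645 (Oas1g), chr11:48871415-48871464 (Irgm1), chr4:156200855-156200904 (Isg15), chr8:71537567-71537616 (Bst2) and chr7:140955978-140956027 (Ifitm2). Plus-strand stretches lie at chr19:34640784-34640833 (Ifit1), chr19:34583387-34583436 (Ifit3), chr3:142620584-142620633 (Gbp2), chr3:142559985-142560034 (Gbp3), chr11:58199502-58199551 (Igtp) and chr11:58214893-58214942 (Irgm2). The stretches of Oas1a and Oas1g were identical at 49 of 50 bases, and those of Igtp and Irgm2 at 48 of 50. Isg15 held 3 overlapping matches, of which 1 is in capitals. Over the members 15 of 17 had a match before the start site, and 10 had more than 1 match. An ISRE match was present in the windows of 17 of 32 members (53.1%), against 3.99% of the 27025 genes in the table. By window, it was in 45.9% of 37 member windows and 3.44% of all 32851. The GAS letters TTCNNNGAA, which read the same on both strands, were in the windows of 10 of 32 members (31.2%), against 9.55% of genes. ISRE matches were found in 15 of 27 members called lower and in 2 of 5 members not called, Ifitm2 and Rsad2. A match describes these letters in this window and is not evidence of binding.

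The OAS family, whose active enzymes sense double-stranded RNA and make short oligoadenylates that activate RNase L, was lower in MYCN ON. The 7 family members were called. Apart from Oas1g, they had 4.38-fold (Oas3) to 14.8-fold (Oas1a) higher levels in MYCN OFF. Oas1b was at 0.696 to 3.27 CPM with a median of 1.59 in MYCN ON, and at 19.6, 11, 21.2 and 8.62 CPM in MYCN OFF tumors 1 to 4 (log2 fold change -3.18, SE 0.48, edgeR adjusted p = 0.0013). Oas1a was at 0.354 to 3.35 CPM with a median of 1 in MYCN ON, and at 37.9, 6.53, 21.9 and 8.53 CPM in MYCN OFF tumors 1 to 4, and was 14.8-fold higher in MYCN OFF (adjusted p = 0.0017). Oasl1, an OAS-like protein without the synthetase activity, was at 0.354 to 2.88 CPM with a median of 1.45 in MYCN ON, and at 23.8, 7.92, 17.5 and 10.2 CPM in MYCN OFF tumors 1 to 4 (log2 fold change -3.40, SE 0.54, edgeR adjusted p = 0.0016). For these 3 genes no MYCN ON tumor reached the lowest MYCN OFF tumor, and MYCN OFF tumors 1 and 3 were the highest. Oas1g had 0 to 9 reads in the MYCN ON tumors and 35 to 186 in MYCN OFF, and was also separated. Because it entered the test only through the MYCN OFF tumors, no fold is given for it. The other members overlapped through 1 MYCN ON tumor each: tumor 5 at 16.1 CPM of Oas2 and 22.4 CPM of Oasl2, and tumor 7 at 17.8 CPM of Oas3. Without MYCN OFF tumor 1, Oas2 (5.03-fold, adjusted p = 0.129) and Oasl2 (4.82-fold, adjusted p = 0.0694) lost their calls and Oas1a was 9.78-fold higher. Without MYCN ON tumor 5, Oas2 was 29.7-fold and Oasl2 20.5-fold higher in MYCN OFF. Oas1a, Oas1b and Oasl1 rested on 4 to 43, 6 to 42 and 4 to 37 reads per MYCN ON tumor. Of the 50-base stretches of Oas1a transcripts, 57.6% also occur in another gene, mostly Oas1g, so reads from those stretches may have been lost and both levels are uncertain.

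IFIT proteins bind foreign 5′ ends of RNA and block its translation. Ifit3 was at 0.464 to 9.67 CPM with a median of 1 in MYCN ON, and at 137, 8.31, 32.7 and 14.1 CPM in MYCN OFF tumors 1 to 4 (log2 fold change -4.29, SE 0.91, edgeR adjusted p = 0.00625). Ifit1 was 10.8-fold higher in MYCN OFF (adjusted p = 0.0125). Without MYCN OFF tumor 1, Ifit1 lost its call (4.79-fold, adjusted p = 0.0694) and Ifit3 was 7.52-fold higher (adjusted p = 0.0319). Without MYCN ON tumor 5 the folds were 18.6 and 39.1. Both overlapped between the groups only through that tumor, and 51.2% of the 50-base stretches of Ifit3 also occur elsewhere, mostly in Ifit3b. Ifit2, a gene of the same cluster, stood apart from them. It was at 2.64 to 59.9 CPM with a median of 13.9 in MYCN ON, and at 69.7, 21.6, 51 and 12.3 CPM in MYCN OFF tumors 1 to 4 without passing the test (log2 fold change -0.72, adjusted p = 0.509). MYCN ON tumors 2 and 7 held 59.9 and 49.4 CPM of Ifit2, above the 21.6 and 12.3 CPM of MYCN OFF tumors 2 and 4, while their Ifit3 was at 0.796 and 1 CPM.

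Ifi44, a GTPase-like antiviral protein, was at 0.464 to 7.95 CPM with a median of 1.96 in MYCN ON, and at 126, 5.84, 47 and 7.68 CPM in MYCN OFF tumors 1 to 4. It was 16.6-fold higher in MYCN OFF (adjusted p = 0.00618), and MYCN ON tumor 5 at 7.95 CPM lay above MYCN OFF tumors 2 and 4. The fold of Ifi44 was 7.21 without MYCN OFF tumor 1 (adjusted p = 0.0294). Ifi35, which binds the NMI protein, was at 2.44 to 22.3 CPM with a median of 9.41 in MYCN ON, and at 60, 60.5, 51.1 and 52.1 CPM in MYCN OFF tumors 1 to 4 (log2 fold change -2.45, SE 0.48, edgeR adjusted p = 0.00398). Ifi35 was even across the 4 MYCN OFF tumors, at 55.9 ± 4.99 CPM (SD, n = 4), and separated from all 7 MYCN ON tumors.

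Guanylate-binding proteins assemble on the membranes that surround intracellular pathogens. Of 6 members 5 were lower in MYCN ON, with 4.30-fold to 7.26-fold higher levels in MYCN OFF. Gbp3 was at 2.01 to 9.98 CPM with a median of 3.87 in MYCN ON, and at 77.1, 12.1, 43.9 and 18.6 CPM in MYCN OFF tumors 1 to 4 (log2 fold change -2.86, SE 0.55, edgeR adjusted p = 0.00367). Gbp7 was at 4.64 to 28.6 CPM with a median of 11.2 in MYCN ON, and at 108, 41.6, 60.1 and 44.9 CPM in MYCN OFF tumors 1 to 4, 4.55-fold higher in MYCN OFF (adjusted p = 0.00811). These were the 2 members whose groups did not overlap. Gbp4 was at 0.972 to 7.09 CPM with a median of 1.32 in MYCN ON, and at 38.6, 5.34, 16.3 and 4.87 CPM in MYCN OFF tumors 1 to 4 (adjusted p = 0.0145). Gbp4, Gbp2 and Gbp9 overlapped between the groups, each with MYCN ON tumor 5 as the highest of its group. Without MYCN OFF tumor 1 only Gbp3 and Gbp7 of the family stayed called, Gbp3 at 4.76-fold. Gbp2 (2.6-fold, adjusted p = 0.121), Gbp4 (3.48-fold, adjusted p = 0.078) and Gbp9 (3.25-fold, adjusted p = 0.0924) then missed the threshold. Gbp6 missed the threshold (log2 fold change -1.78, adjusted p = 0.154). MYCN ON tumor 5 held 18.6 CPM of Gbp6 against at most 2.34 CPM in the remaining 6 MYCN ON tumors. Without that tumor Gbp6 passed the test (log2 fold change -3.17, edgeR adjusted p = 0.00508), and limma voom called it with all tumors (adjusted p = 0.0394). In GENCODE M21, 70.7% of the 50-base stretches of Gbp6 are shared, mostly with Gm43302 and Gbp10, the largest such share of the family, so its level is uncertain.

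The immunity-related GTPases, which disrupt vacuoles of pathogens and, for the Irgm members, regulate the other family members, were all 4 lower in MYCN ON. Irgm2 was at 2.44 to 10.3 CPM with a median of 4.62 in MYCN ON, and at 52, 22.5, 35.2 and 22.1 CPM in MYCN OFF tumors 1 to 4 (log2 fold change -2.68, SE 0.40, edgeR adjusted p = 0.00133). Irgm1 was at 3.48 to 14.7 CPM with a median of 7.06 in MYCN ON, and at 103, 26.3, 51.8 and 27.9 CPM in MYCN OFF tumors 1 to 4, 7.24-fold higher in MYCN OFF (adjusted p = 0.00138). Igtp, also known as Irgm3, was at 0.928 to 10.4 CPM with a median of 3.29 in MYCN ON, and at 50.9, 24.5, 32.7 and 16.7 CPM in MYCN OFF tumors 1 to 4 (log2 fold change -3.02, SE 0.57, edgeR adjusted p = 0.00344). These 3 genes were separated between the groups, and MYCN ON tumor 5 was the highest of its group for each. Iigp1 was 10-fold higher in MYCN OFF (adjusted p = 0.0108), with MYCN ON tumor 5 at 12.7 CPM above MYCN OFF tumor 2 at 7.12 CPM. Iigp1 lost its call without MYCN OFF tumor 1 (4.76-fold, adjusted p = 0.0587).

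The MX dynamin-like GTPases block virus nucleocapsids, and common laboratory mouse strains carry defective alleles of them. Mx1 was at 0.177 to 3.59 CPM with a median of 1.32 in MYCN ON, and at 40.5, 5.14, 30.2 and 16.7 CPM in MYCN OFF tumors 1 to 4 (log2 fold change -4.05, SE 0.71, edgeR adjusted p = 0.00247). Mx2 was at 0 to 2.57 CPM with a median of 1.1 in MYCN ON, and at 27.5, 4.75, 23 and 10.5 CPM in MYCN OFF tumors 1 to 4, 14.3-fold higher in MYCN OFF (adjusted p = 0.0058). Neither gene overlapped between the groups, and the MYCN ON levels rested on 2 to 46 reads per tumor for Mx1 and 0 to 33 for Mx2.

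ISG15 is a ubiquitin-like modifier, HERC6 its main ligase in the mouse, and USP18 the protease that removes it and also restrains the type I receptor. Isg15 was at 0.696 to 8.89 CPM with a median of 1 in MYCN ON, and at 76.3, 7.92, 31.2 and 8.99 CPM in MYCN OFF tumors 1 to 4 (log2 fold change -3.58, SE 0.81, edgeR adjusted p = 0.00825). MYCN ON tumor 5 at 8.89 CPM lay between MYCN OFF tumors 2 and 4, and the other MYCN ON tumors were at 3.53 CPM or below. Isg15 was 6.19-fold higher in MYCN OFF without MYCN OFF tumor 1 (adjusted p = 0.0384) and 20.4-fold without MYCN ON tumor 5. Herc6 was at 10.5 to 20.9 CPM with a median of 12 in MYCN ON, and at 57.5, 65.2, 49.8 and 22.9 CPM in MYCN OFF tumors 1 to 4 (log2 fold change -1.84, SE 0.29, edgeR adjusted p = 0.00149), with no overlap. The group means of Herc6 were 13.7 ± 3.8 CPM in MYCN ON (n = 7) and 48.9 ± 18.4 CPM in MYCN OFF (n = 4, SD). Usp18 was not called although its fitted level was 4.23-fold higher in MYCN OFF (adjusted p = 0.101). It ranged widely within MYCN ON, from 0.464 CPM in tumor 1 to 54.4 CPM in tumor 5, with 19.3 and 16.5 CPM in tumors 2 and 7. Without MYCN ON tumor 5, Usp18 passed the test (log2 fold change -2.96, edgeR adjusted p = 0.0215).

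PARP9 and DTX3L form a complex that ADP-ribosylates and ubiquitinates, and PARP12 and PARP14 are mono-ADP-ribosyl transferases. All 4 genes were lower in MYCN ON and none overlapped between the groups. Dtx3l was at 6.96 to 18.5 CPM with a median of 12.4 in MYCN ON, and at 71.1, 37.3, 45.7 and 29.6 CPM in MYCN OFF tumors 1 to 4 (log2 fold change -1.91, SE 0.30, edgeR adjusted p = 0.0015). Parp12 was at 12.3 to 33.2 CPM with a median of 23.2 in MYCN ON, and at 96.4, 60.1, 73.5 and 66.9 CPM in MYCN OFF tumors 1 to 4, 3.07-fold higher in MYCN OFF (adjusted p = 0.00182). Parp9 was at 6.26 to 17.5 CPM with a median of 9.28 in MYCN ON, and at 79.9, 28.7, 46 and 31.9 CPM in MYCN OFF tumors 1 to 4 (adjusted p = 0.00206). The tumor numbers of the highest MYCN ON values differed here: tumor 3 for Dtx3l, 2 for Parp12 and 7 for Parp9. Parp14 had the largest difference of the family (7.74-fold, adjusted p = 0.00622), which was 4.63-fold without MYCN OFF tumor 1 and 11.6-fold without MYCN ON tumor 5.

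IFITM proteins stop enveloped viruses from fusing, and BST2, or tetherin, holds budding virions at the cell surface. Bst2 was at 3.27 to 21.2 CPM with a median of 6.96 in MYCN ON, and at 125, 14, 65.8 and 26.1 CPM in MYCN OFF tumors 1 to 4 (log2 fold change -2.78, SE 0.58, edgeR adjusted p = 0.0058). Ifitm3 was at 10.5 to 52.5 CPM with a median of 34.1 in MYCN ON, and at 278, 27.8, 95.1 and 85.6 CPM in MYCN OFF tumors 1 to 4 (adjusted p = 0.0272). For Ifitm3, MYCN OFF tumor 2 lay below MYCN ON tumors 3, 4, 5 and 6, and for Bst2 below MYCN ON tumor 5. Ifitm3 lost its call without MYCN OFF tumor 1 (log2 fold change -1.19, adjusted p = 0.157), and Bst2 was then 4.2-fold higher (adjusted p = 0.0249). Ifitm1 was at 0.707 to 8.03 CPM with a median of 2.09 in MYCN ON, and at 31.5, 1.98, 7.56 and 9.46 CPM in MYCN OFF tumors 1 to 4 with a log2 fold change of -2.05 that missed the threshold (adjusted p = 0.0609), and MYCN OFF tumor 2 lay below 4 MYCN ON tumors. Ifitm2 was at 28.8 to 109 CPM with a median of 83.3 in MYCN ON, and at 90.7, 79.2, 50.4 and 77 CPM in MYCN OFF tumors 1 to 4, with a log2 fold change of 0.18 (adjusted p = 0.684). With upper quartile scaling its sign turned (-0.03), as it did with total scaling (-0.12), so no direction is given for Ifitm2. Of its 50-base stretches 48.5% occur in other genes, mostly Gm45717.

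Of 4 enzymes that act on nucleotides or RNA 2 were called, and the fitted levels of the family were 1.44-fold to 5.03-fold higher in MYCN OFF. Isg20, an RNA exonuclease, was at 2.3 to 7.35 CPM with a median of 4.7 in MYCN ON, and at 34.5, 12.3, 18 and 35.8 CPM in MYCN OFF tumors 1 to 4 (log2 fold change -2.33, SE 0.37, edgeR adjusted p = 0.0016). Cmpk2, a mitochondrial nucleotide kinase, was at 26.1 to 65.1 CPM with a median of 37.8 in MYCN ON, and at 85.5, 73, 90.7 and 65.5 CPM in MYCN OFF tumors 1 to 4 (log2 fold change -0.84, SE 0.29, edgeR adjusted p = 0.0455). Both were separated between the groups, but Cmpk2 lost its call in 8 of the 11 fits that left out 1 tumor, namely without MYCN ON tumor 1, 3, 4 or 6 and without each MYCN OFF tumor (adjusted p of 0.0547 to 0.111). Samhd1, which degrades deoxynucleotides, was at 60.8 to 111 CPM with a median of 88.6 in MYCN ON, and at 190, 117, 103 and 92.2 CPM in MYCN OFF tumors 1 to 4 (log2 fold change -0.53, adjusted p = 0.0832). Rsad2, or viperin, which makes a chain-terminating nucleotide, was at 4.49 to 28.5 CPM with a median of 16.8 in MYCN ON, and at 60.1, 23, 36 and 12.8 CPM in MYCN OFF tumors 1 to 4 (log2 fold change -1, adjusted p = 0.128). Neither passed the test, and 5 MYCN ON tumors held as much Rsad2 as the lowest MYCN OFF tumor. Rsad2 and Cmpk2 are neighbouring genes.

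The remaining 5 effectors were all lower in MYCN ON. Lgals3bp, a secreted galectin ligand, was at 16.5 to 53.6 CPM with a median of 28.9 in MYCN ON, and at 352, 87.9, 189 and 119 CPM in MYCN OFF tumors 1 to 4 (log2 fold change -2.45, SE 0.40, edgeR adjusted p = 0.00172). Xaf1, a pro-apoptotic binding partner of XIAP, was at 2.32 to 22.3 CPM with a median of 6.12 in MYCN ON, and at 164, 30.4, 53.9 and 30.6 CPM in MYCN OFF tumors 1 to 4 (9.13-fold, adjusted p = 0.00402). Trim21, a cytosolic antibody receptor and ubiquitin ligase, was at 1.36 to 6.39 CPM with a median of 5.68 in MYCN ON, and at 28.1, 15, 18.1 and 18.9 CPM in MYCN OFF tumors 1 to 4 (log2 fold change -2.15, SE 0.42, edgeR adjusted p = 0.00413). These 3 did not overlap between the groups. Rtp4 (12.7-fold) and the nuclear body protein Sp100 (8.26-fold) did, through MYCN ON tumor 5 and MYCN OFF tumor 2. Without MYCN OFF tumor 1 Sp100 lost its call (3.41-fold, adjusted p = 0.0829), Rtp4 was 6.41-fold (adjusted p = 0.028) and Xaf1 5.03-fold higher (adjusted p = 0.0166). Without MYCN ON tumor 5 Rtp4 was 20.8-fold higher.

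**Figure D2:**
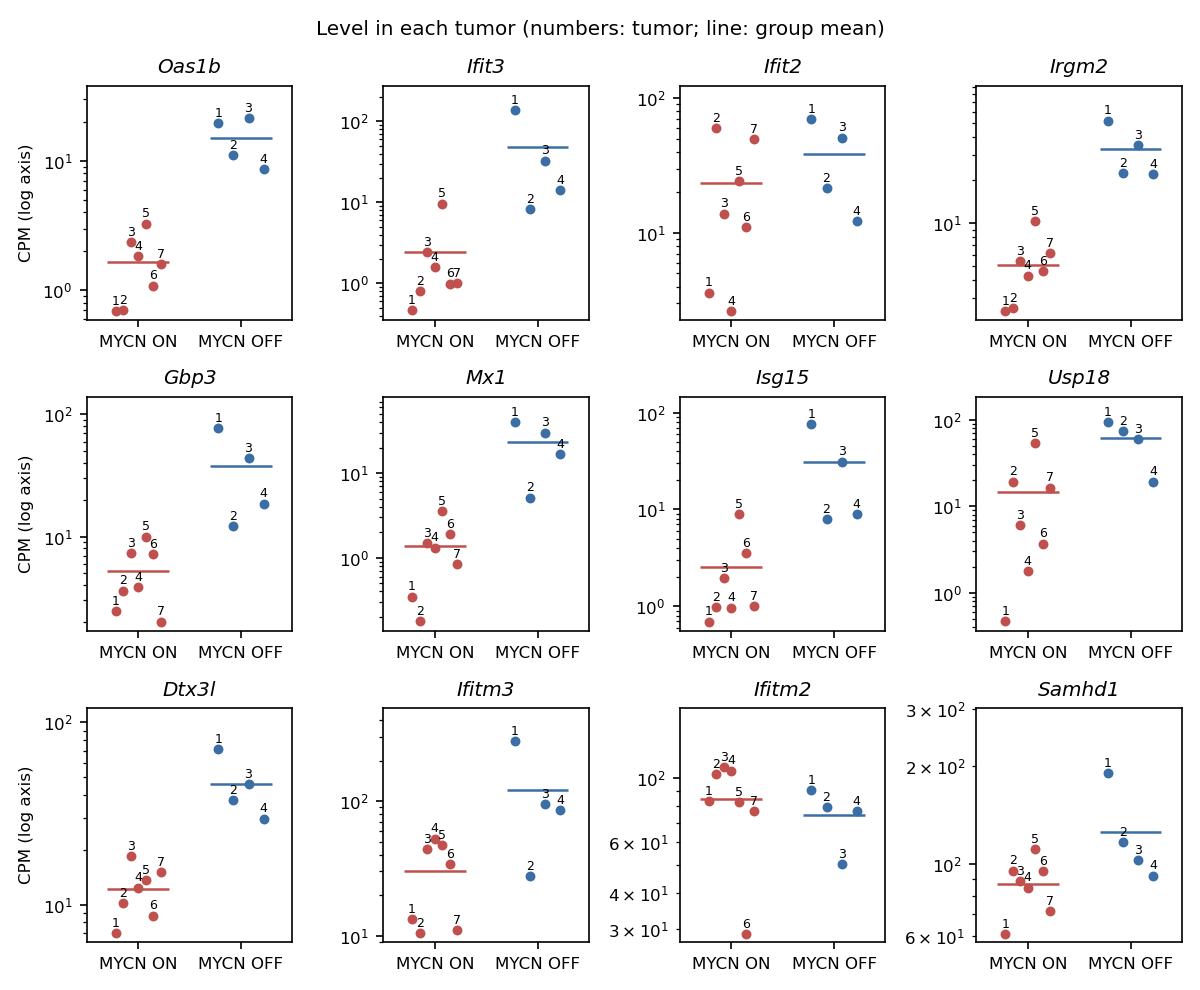
CPM on a log axis of 12 effector genes in each of the 7 MYCN ON and 4 MYCN OFF tumors, with tumor numbers beside the points and a line at the group mean. Oas1b, Irgm2, Gbp3, Mx1 and Dtx3l are separated between the groups, while MYCN ON tumors 2 and 7 stand high for Ifit2 and tumors 2, 5 and 7 for Usp18.

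Levels can be set between genes only per length, here CPM per kilobase of GENCODE M21 exons. On that scale Ifitm2 and Ifitm3 led in both groups. In MYCN ON, Ifitm2 was at 129 and Ifitm3 at 44.8 CPM per kilobase, followed by Lgals3bp (12) and Cmpk2 (10.6). In MYCN OFF, Ifitm3 was at 180 CPM per kilobase, Ifitm2 at 113, Lgals3bp at 65.7, Bst2 at 63.9 and Isg15 at 41.1. The order of the first 2 turned without MYCN OFF tumor 1, with Ifitm3 at 103 and Ifitm2 at 105 CPM per kilobase. Oas1g, which entered the test only through the MYCN OFF tumors, was the lowest member in MYCN ON, at 0.165 CPM per kilobase.

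Within each group many members shared their highest and lowest tumors. MYCN ON tumor 5 was the highest of its group for 33 of 44 members and MYCN ON tumor 1 the lowest for 22. MYCN OFF tumor 1 was the highest of its group for 37 members, and MYCN OFF tumor 2 the lowest for 29. How often these tumors ranked so over all genes was not counted. MYCN ON tumor 5 also had the lowest Mycn (36.5 CPM) and the highest lung and leukocyte marker scores of its group (7.09 and 3.15). MYCN ON tumor 1 had the highest Mycn (171 CPM) and the lowest leukocyte score (1.65). The part of these in the ranks was not tested. Summed over the 44 genes, the level was 335 to 905 CPM in MYCN ON and 3990, 1160, 1980 and 1220 CPM in MYCN OFF tumors 1 to 4. The members whose highest MYCN ON tumor was 2 or 7 were Oas3, Ifit2, Ifi35, Herc6, Parp9, Parp12 and Isg20.

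**Figure D3:**
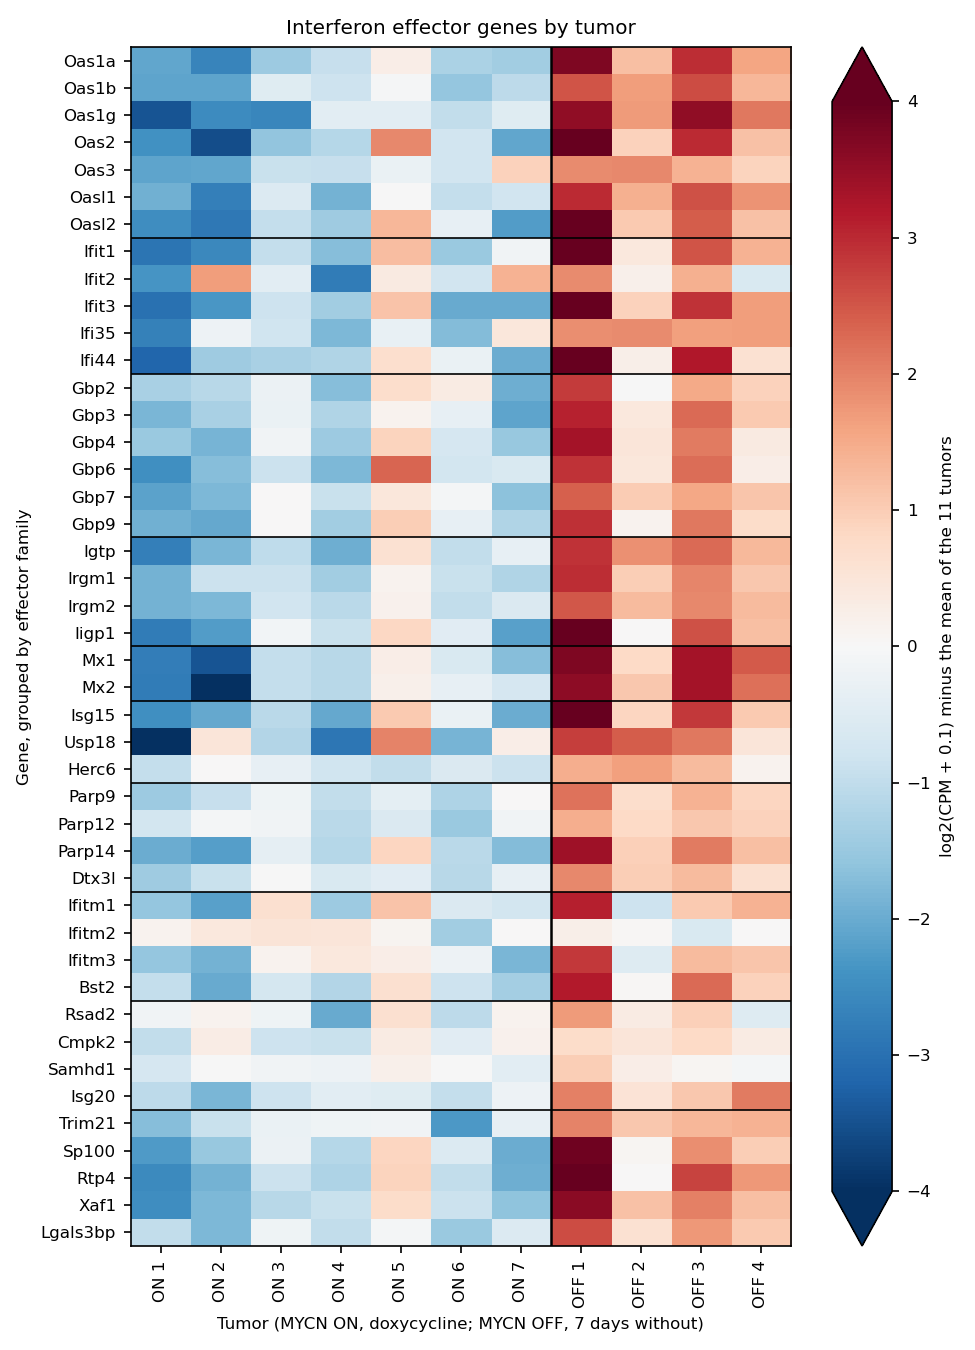
Log2(CPM + 0.1) of the 44 effector genes, centred on the mean of the 11 tumors, with colours limited at 4 in either direction and lines between families. The MYCN OFF columns are mostly red and the MYCN ON columns mostly blue, except MYCN ON tumor 5, which is red for many genes and the highest of its group for 33.

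Genes upstream of the effectors were read from lists of the pathway. Beside the counts that follow, 13.4% of all genes tested were lower in MYCN ON and 16% higher. The 19 interferon ligand genes in the files had at most 5 reads in a tumor and were not tested. Of these 11 had 0 reads in every tumor, among them Ifnb1, and a count of 0 allows up to 0.202 to 0.348 CPM per tumor (3 reads). The 5 reads were of Ifng, the interferon gamma gene, in MYCN OFF tumor 1. Of 6 receptor genes 2 were lower in MYCN ON: Il10rb, a chain of the type III receptor (2.77-fold, edgeR adjusted p = 0.0336), and Ifnar2 (2.28-fold, adjusted p = 0.0408). Ifngr1 was at 37.4 ± 6.94 against 64.9 ± 37.9 CPM (SD, MYCN ON and MYCN OFF) without passing the test (adjusted p = 0.059). Of 13 JAK, STAT and IRF genes 10 were lower and 0 higher. Irf1 was 3.90-fold (adjusted p = 8.47e-04) and Stat2 3.40-fold (adjusted p = 0.00147) higher in MYCN OFF. Irf7, which amplifies type I interferon, was at 4.8 ± 5.69 against 87.1 ± 71.8 CPM (SD, adjusted p = 0.00277). Of 14 sensors and adaptors 7 were lower and 0 higher, and the called folds ran from 3.4 (Ikbke) to 9.64 (Zbp1, a sensor of Z-form nucleic acids). The RNA helicases Dhx58 (8.09-fold), Ddx58 (6.97-fold) and Ifih1 (5.68-fold) were among them. Among 6 negative regulators, which include Usp18, Ptpn6 (4.53-fold, adjusted p = 0.00682) and Socs3 (3.32-fold, adjusted p = 0.0157) were lower in MYCN ON. Ptpn2 had a log2 fold change of 0.56 and missed the threshold (adjusted p = 0.0667).

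Some markers of leukocytes and of lung were also lower in MYCN ON, where 13.4% of all genes tested were lower. Of 36 tested leukocyte markers 24 were lower in MYCN ON and 0 higher, and none of the 43 in the files was at 0 in every tumor. Their summed level was 368 to 1260 CPM in MYCN ON and 7920, 618, 2760 and 2670 CPM in MYCN OFF tumors 1 to 4. The sums follow few genes. In MYCN OFF tumors 1 to 4, Lyz2 alone was at 4840, 140, 1140 and 1410 CPM and Igj at 966, 22.8, 328 and 271 CPM. Of the macrophage markers Cd68, Emr1, Mrc1 and Marco were not called. T and NK cell markers summed to 3.26 to 11.6 CPM in MYCN ON and to 6.63 to 100 CPM in MYCN OFF, with 5 of 6 tested genes lower, and macrophage markers to 244 to 872 against 405 to 5670 CPM, with 7 of 11 lower. Of 12 lung epithelium markers 4 were lower and 0 higher. Endothelial markers had 3 of 7 lower, and fibroblast markers 0 of 7.

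**Figure D4:**
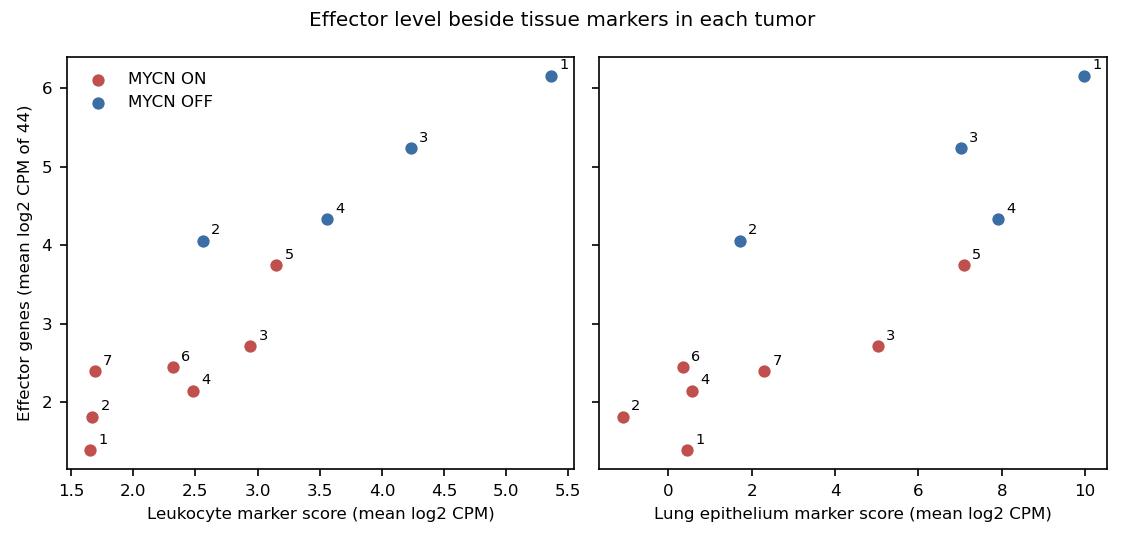
Mean log2 CPM of the 44 effector genes in each tumor against the mean log2 CPM of leukocyte markers (left) and of lung epithelium markers (right), with tumor numbers. MYCN OFF tumor 2 has an effector level of 4.06, above all 7 MYCN ON tumors (1.39 to 3.75), beside a leukocyte score of 2.56 that lies within their 1.65 to 3.15. That score is above those of all lung-poor MYCN ON tumors (1.65 to 2.48).

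Of the MYCN OFF tumors, tumor 2 had the lowest lung and leukocyte scores (1.71 and 2.56). Its leukocyte score was still above those of all 5 lung-poor MYCN ON tumors (1.65 to 2.48). Its lung score was above theirs except that of tumor 7 (2.3). MYCN OFF tumor 2 lay above all 7 MYCN ON tumors for 25 of 44 members and below at least 1 of them for 19. The share of all genes in that position was not counted, so the 25 is no result about the members. MYCN OFF tumor 2 exceeded all 5 lung-poor MYCN ON tumors for 39 of 44 members, Oas1g among them, a position it held for 24.6% of genes. The exceptions were Ifit2, Gbp2, Ifitm1, Ifitm2 and Ifitm3. The comparison rests on 1 MYCN OFF tumor, whose skeletal muscle markers summed to 461 CPM against 5.25 to 109 CPM in MYCN ON. The fits to the lung-poor tumors hold no spread of MYCN OFF and assume that its lone tumor varies like MYCN ON. Under that assumption edgeR called 0 members, with 24 at an unadjusted p below 0.05, limma voom 0 (0.0191% of genes) and DESeq2 10 (1.27% of genes). Among the lung-containing tumors, all 3 of MYCN OFF lay above both of MYCN ON for 32 members, Oas1g among them, and for 21.6% of genes. There edgeR called 0 members and 0 of the 15690 genes tested. At an unadjusted p below 0.05 it had 32 members, against 3899 of the 15690 genes in either direction. Limma voom called 0 members and DESeq2 32 (7.78% of genes).

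With marker scores as covariates fewer members were called. With the lung score 19 members were lower in MYCN ON, Oas1g among them, against 2.91% of genes. The median log2 fold change of the members was then -1.66. With the leukocyte score 8 were lower, against 2.53% of genes, with a median of -1.05, and these 8 were Oas1a, Oas1b, Oasl1, Ifi35, Irgm1, Irgm2, Herc6 and Dtx3l. All of them were also called without a covariate. The log2 fold changes of Herc6 (-1.89) and Ifi35 (-2.58) with the leukocyte score were as large as without it. Among called members, those of Gbp2 (-0.13), Gbp9 (-0.2), Sp100 (-0.21) and Iigp1 (-0.27) were near 0, and that of Ifitm3 was 0.30. Others lost their call while the fold changed little: Oas3 (-2.18, adjusted p = 0.0945), Parp12 (-1.43, adjusted p = 0.0557) and Cmpk2 (-0.75, adjusted p = 0.314). With the score of endothelial and fibroblast markers 33 members were called, Oas1g among them, against 7.77% of genes. With the lung and leukocyte scores together 9 were called, against 2.64%. The part of these cells in the differences was not tested beyond these fits.

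**Figure D5:**
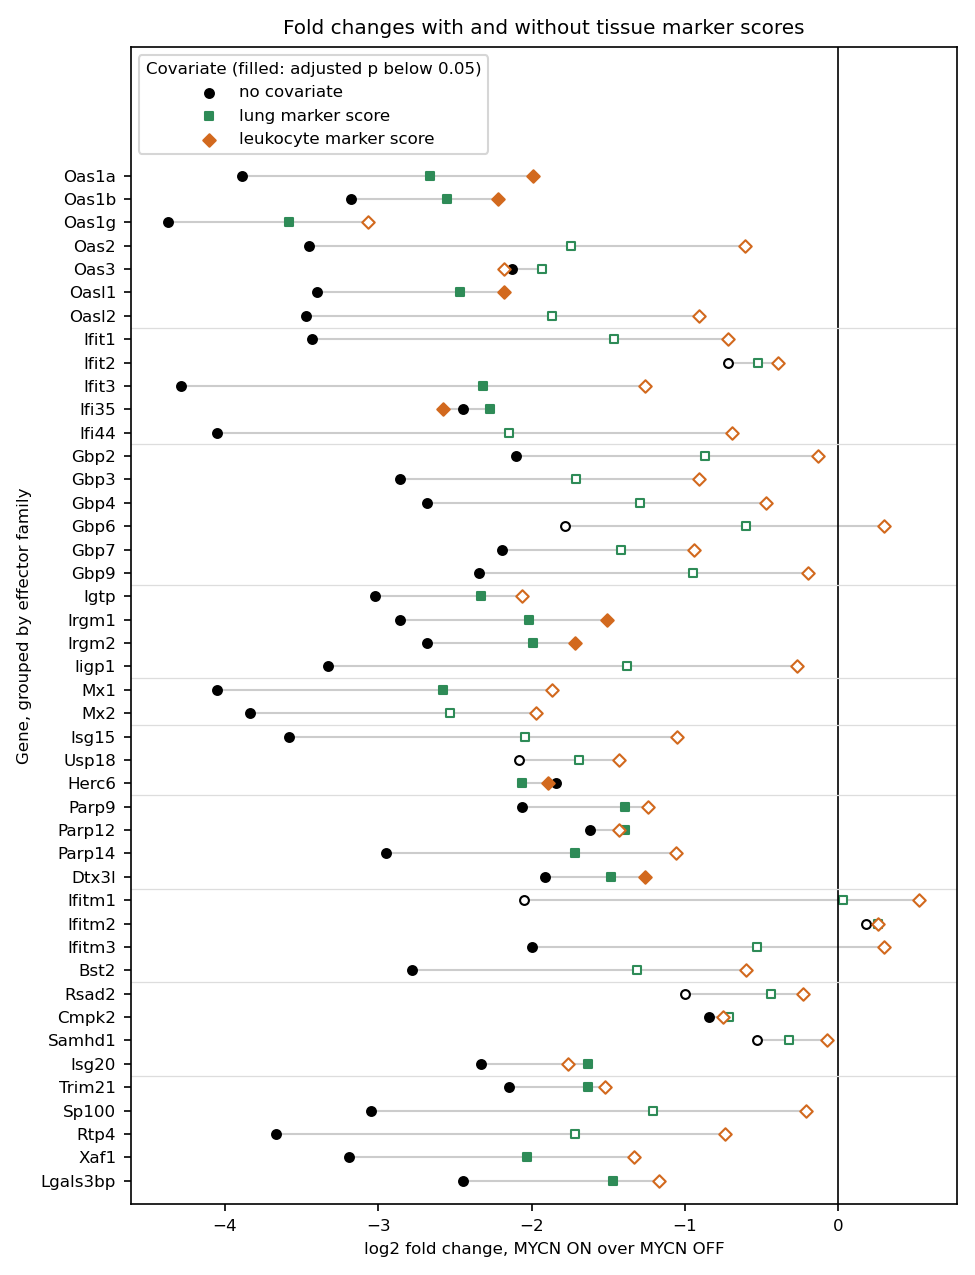
Log2 fold change (MYCN ON over MYCN OFF) of each effector gene with no covariate (circles), with the lung marker score (squares) and with the leukocyte marker score (diamonds). Filled symbols have an edgeR adjusted p below 0.05, which 37, 19 and 8 genes reach, and with the leukocyte score Gbp6, Ifitm1, Ifitm2 and Ifitm3 lie right of 0.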

How the data were processed

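Poly(A) RNA of the tumors was made into libraries with the NEBNext Ultra kit, per the labels' protocols. The submitters' processing notes name mouse build mm9, bcl2fastq (1.8.4), TopHat2 (version 2.0.8b) and HTSeq (release 0.6.1). Annotation and strandedness of counting are not given in the sources used here. Overlapping or antisense genes may therefore share reads. Raw counts by gene symbol were deposited by the authors, with 5 summary rows that were left out of all sums: reads without a feature were 14.8% to 21.5% and reads aligned to several places 13.8% to 20.9% of a tumor's records in MYCN ON and 9.15% to 11.9% in MYCN OFF. TMM factors were 0.835 to 1.01 and 1.09 to 1.22. The part of either in the differences was not tested. Groups and replicate numbers come from the sample titles. Counts were filtered with filterByExpr (minimum count 10, minimum total 15), scaled by TMM and tested with edgeR 4.0.16 in R 4.3.3 (quasi-likelihood, robust, no covariate). Benjamini-Hochberg adjustment ran over the 15237 genes tested, and the SE is the log2 fold change over the square root of F. Scores are mean log2 CPM (prior count 2). The biological coefficient of variation was 53.7%, so the spread between tumors, not depth, set the precision for most genes.

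The members and lists were chosen with earlier results of these data known. Within each family up to 3 members (up to 2 in families under 4) with the smallest p were given by tumor, and other genes were named after their values were seen. On simulated counts for 15237 genes, with 200 changed, the test recovered 8.25% of 2-fold and 52.5% of 4-fold changes. Of its calls there 1.64% were false. In the tumors 29.4% of genes were called, far more than were changed in those counts. Whether these rates hold for the tumors was not tested. Replicate tumors all differed beyond counting noise (smallest chi-square per gene 50.5). Alternatives were other scalings, DESeq2 1.42.0, limma 3.58.1 voom, other filters, a replicate block, marker covariates, lung-poor or lung-containing tumors alone, stricter thresholds and each tumor left out. Sequences are from RefSeq (GRCm38.p6), and for 25 of 32 members the 50 bases after the start lay in a GENCODE M21 transcript of the gene. The annotation differs in build from the counts and gave lengths and shared 50-base stretches only.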

Additional observations from a re-analysis of the deposited data

Results flagged for a closer look

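Dixon's gap test on log2 CPM was applied to each member in each group, 88 sets of tumors, and chance flags about 1 in 20. It marked 2. Gbp6 in MYCN ON tumor 5 was at 18.6 CPM, with the next MYCN ON tumor at 2.34. Ifitm2 in MYCN ON tumor 6 was at 28.8 CPM, with the next lowest at 77.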

How the results depend on the processing

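No alternative called a member higher in MYCN ON. The count of 37 members stayed between 36 and 41 with RLE, upper quartile or total scaling, DESeq2, limma voom with or without quality weights, no or a stricter low-count filter and the replicate block, against 7.56% to 21.9% of genes. It was 26 at an adjusted p below 0.01, 32 for changes above 1.5-fold and 27 to 40 with 1 tumor left out, where the lowest was without MYCN OFF tumor 1. In those fits 27 of the 37 kept their call throughout, 9 lost it only without MYCN OFF tumor 1 and Cmpk2 in 8 fits. The count was 19 with the lung score, 8 with the leukocyte score, 9 with both (chosen after seeing the data) and 0 in either lung stratum by edgeR, where fewer tumors were tested. Added after seeing the data, DESeq2 called 10 and limma voom 0 in lung-poor tumors (1 of them MYCN OFF, assumed to vary like MYCN ON), and 32 and 0 in lung-containing tumors. Over all genes, 4475 were called, with 1703 at an adjusted p below 0.01 and 1456 above 1.5-fold. The all-gene count was 1464 with the lung score, 1090 with the leukocyte score, 1139 with both and 0 in the lung-containing tumors. With 1 tumor left out it was 2862 to 5396 (2862 without MYCN OFF tumor 1, 2922 without MYCN OFF tumor 4). The share of higher calls was 54.5% with TMM, 48% with RLE, 37% with upper quartile and 28.4% with total scaling, and the last 2 shifted the all-gene median log2 fold change by -0.21 and -0.31.

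Reversed signs, none of them called, were Ifitm2 with upper quartile (-0.03) and total scaling (-0.12) and in lung-poor tumors (-0.02), Ifit2 in lung-poor tumors (0.21), Ifitm1 with the lung score (0.03), the leukocyte score (0.53) and both (0.37), Gbp6 with the leukocyte score (0.30), and Ifitm3 with the leukocyte score (0.30) and both (0.29). The cause was not tested. With the replicate number as a block 36 members and 3024 genes were called (7.56% of genes lower). Same-numbered tumors correlated at -0.16, 0.46, -0.08 and 0.26 in their deviations from the group means, so the numbers were not taken to pair tumors. Depth limits Oas1a, Oas1b, Oas1g, Oasl1, Mx1 and Mx2 in MYCN ON, which had under 50 reads in each tumor.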
